A study of Homo sapiens with 12 samples.

Results

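The genes described here encode splicing factors of the SR family and its Tra2 relatives: SRSF1, SRSF2, SRSF3, SRSF4, SRSF6, SRSF7, TRA2A and TRA2B. Protein-protected RNA sites were counted as theirs when the midpoint of the site lay on the gene's strand between the gene's start and end in hg19. Of 513381 sites in the 6 replicate lists, 1071 met this rule, and each of the 8 genes had sites in all 6 lists. The rule itself uses positions and no measured values, but the genes were chosen with earlier results of these data known.

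The sites come from protein interaction profile sequencing of HEK293T, an established line of human embryonic kidney origin, fixed as living cells with 1% formaldehyde for 10 minutes. ssRNase footprints are RNA that survived RNase ONE, which cuts single-stranded RNA, and dsRNase footprints are RNA that survived RNase V1, which cuts paired RNA. Each footprint library has its own digestion control, made with the same enzyme, in which SDS and proteinase K stripped the protein before the nuclease was added. All 12 libraries share the cell line and the fixation, and they enter as 3 ssRNase and 3 dsRNase lists of sites where footprint exceeded control at a false discovery rate of 5%. Nothing in the labels ties a replicate to a culture of its own; the spread behind each p-value is that between lists and may be technical.

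SR proteins bind RNA through RNA recognition motifs and contact one another and the spliceosome through domains rich in arginine and serine. They recognise short exonic enhancers and help to define exons, and several of them also act in mRNA export and translation. Their genes are known for ultraconserved poison exons: an exon that carries a premature stop codon is included when the protein is abundant, in several of them by the protein itself, and the transcript is then degraded by nonsense-mediated decay. The transcripts of these genes are thus themselves targets of splicing regulators.

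The poison exons are shown by the part of each that is read before its premature stop, since that stop defines them. The sequences are from GENCODE release 29, which is on GRCh38, and each belongs to a transcript annotated for nonsense-mediated decay. Capitals mark the stop codon. At most 1 exon is shown per gene. Also annotated but not shown are stop-carrying exons of SRSF3-204 (98 nt), SRSF4-204 (195 nt), SRSF7-203 (276 nt) and SRSF7-207 (69 nt). These too overlap no exon of a protein-coding transcript.

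SRSF3, transcript SRSF3-203, exon 4 of 7, 456 nt long: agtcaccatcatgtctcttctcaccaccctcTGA

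SRSF4, transcript SRSF4-206, exon 4 of 8, 175 nt long: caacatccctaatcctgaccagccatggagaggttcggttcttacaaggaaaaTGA

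SRSF6, transcript SRSF6-202, exon 3 of 7, 268 nt long: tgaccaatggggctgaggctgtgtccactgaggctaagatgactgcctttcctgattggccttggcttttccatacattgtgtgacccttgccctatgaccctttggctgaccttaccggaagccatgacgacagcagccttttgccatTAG

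SRSF7, transcripts SRSF7-204 and SRSF7-205, exon 4 of 9, 449 nt long: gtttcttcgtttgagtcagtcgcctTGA

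TRA2B, transcript TRA2B-206, exon 2 of 10, 276 nt long: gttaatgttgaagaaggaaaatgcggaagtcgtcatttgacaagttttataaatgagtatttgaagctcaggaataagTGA

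In SRSF3, SRSF4, SRSF6 and SRSF7 these exons overlap no exon of a protein-coding transcript of the gene. For SRSF1, SRSF2, TRA2A and TRA2B the stop codon of every decay transcript annotated there lies in an exon that overlaps one of a protein-coding transcript. By this overlap rule release 29 gives them no separate poison exon, which does not show that they lack one. The TRA2B exon is shown all the same, as that of the gene's only decay transcript there. With these bounds it is an exon of no protein-coding transcript. The decay transcripts numbered 3 of 9 for SRSF1, 2 of 11 for SRSF2 and 1 of 12 for TRA2A. The site lists are on hg19 and no positions were converted, so the protected sites below are placed by their distance from the 5′ end of the gene and were not assigned to exons.

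The lists differ in length, which bears on every level given here. The ssRNase lists hold 57481 to 209922 sites and the dsRNase lists 21561 to 28413. Minus-strand sites make up 56.6% to 58.8% of the ssRNase lists and 63.2% to 78.4% of the dsRNase lists, and all the genes but SRSF3 and SRSF6 lie on the minus strand. The files hold no read counts and no RNA levels, so the depth behind a site is unknown, and more protein on a transcript and more copies of it cannot be told apart. Levels are therefore given both as site bases, the nucleotides covered by sites, and as their number in every 1000000 site bases of a list, called the share.

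Protein-protected bases in these genes were more numerous with ssRNase, and made up a larger fraction of the list with dsRNase. The 8 genes held 21570, 6003 and 13876 site bases in ssRNase lists 1, 2 and 3, against 2876, 3698 and 3406 in dsRNase lists 1, 2 and 3. Every ssRNase list lay above every dsRNase list. As a fraction of all site bases this was 0.212%, 0.206% and 0.171% in the ssRNase lists and 0.349%, 0.378% and 0.426% in the dsRNase lists, with the groups again separate but in the opposite order. The means were 0.196% ± 0.0218 with ssRNase and 0.384% ± 0.0390 with dsRNase (SD, n = 3 lists each). Scaling by the site bases of each gene's own strand, which takes out the strand imbalance of the lists, narrowed the difference from -0.188 to -0.137 percentage points.

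**Figure D1:**
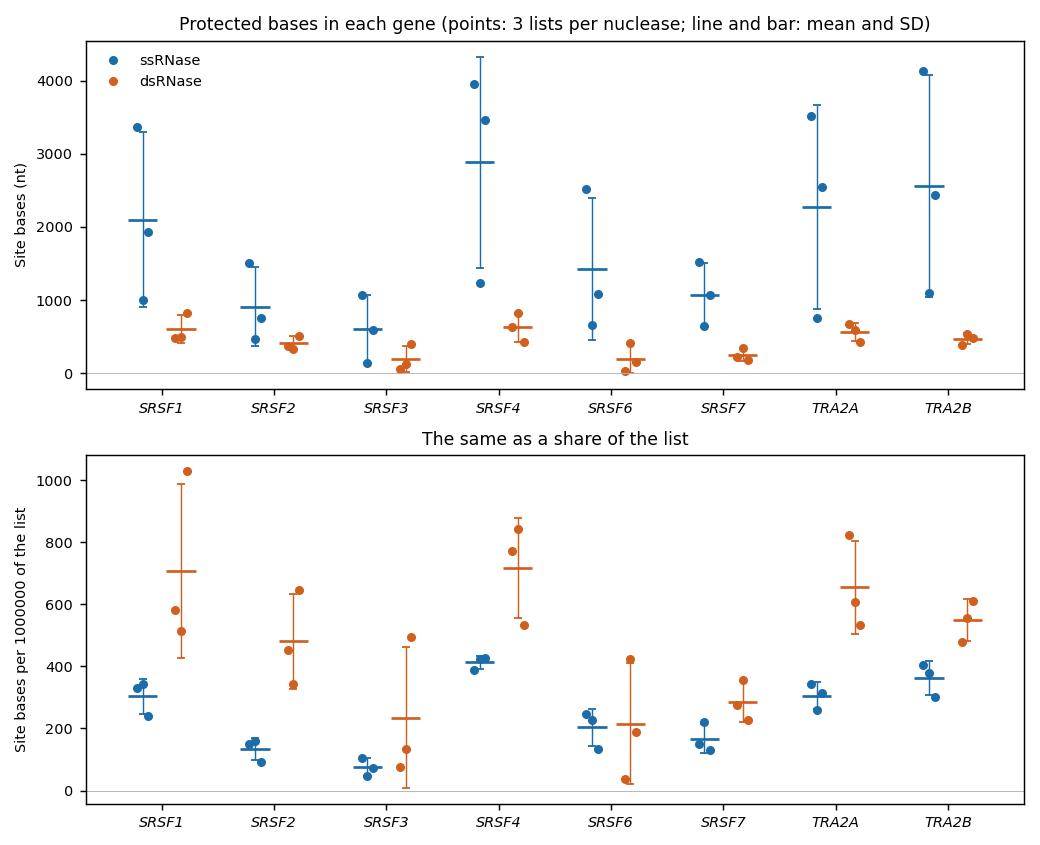
Site bases in each gene (upper panel, nt) and the same scaled to a list of 1000000 site bases (lower panel), with ssRNase left of dsRNase. Points are the 3 lists of a nuclease, horizontal lines their means and bars the SD. In site bases the 3 ssRNase points lie above the 3 dsRNase points in 6 genes, and in the share the 3 dsRNase points lie above the 3 ssRNase points in 6 genes; the difference of SRSF4, SRSF7 and TRA2B turned round when lists were scaled to the median window.

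In site bases the 3 ssRNase lists lay above the 3 dsRNase lists in 6 of 8 genes, all but SRSF2 and SRSF3. The same held for 67.9% of 31413 stranded windows of 10000 bp elsewhere in the genome that had a site in at least 3 lists, and for 57.3% of the 4466 windows with a site in all 6 lists, as all 8 genes have. In the share the order was the opposite: the 3 dsRNase values lay above the 3 ssRNase values in 6 of 8 genes, all but SRSF3 and SRSF6, as in 9.55% of all these windows and 47.5% of those with a site in all 6 lists. In the linear model fitted with limma over these windows and the genes, on log2(share + 20), 4 of 8 genes passed an adjusted p of 0.05: SRSF1, SRSF2, SRSF4 and TRA2A. All of them had the lower share with ssRNase, a direction that SRSF4 lost when lists were scaled to the median window. Of all windows tested 33.6% passed, 26.6% with the higher share under ssRNase and 7.04% under dsRNase. Windows with ssRNase sites only could enter this fit. Where a site with both nucleases was required, 147 of 20978 windows passed with the higher share under ssRNase and 631 under dsRNase. Limma then called 0 of 8 genes. In the fit without that requirement, 34.0% of the windows with a site in all 6 lists passed with the higher share under dsRNase. Under ssRNase it was 73 of these 4466. The 34.0% is the background the 4 of 8 genes are read against. The median ssRNase minus dsRNase difference was -0.89 over the 8 genes and -0.69 over those windows, and relative to this window median the genes' differences ran from -1.01 to 1.01. Differences on this scale understate the change of low features.

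SRSF1, the founding SR protein and a regulator of both constitutive and alternative splicing, had 330, 342 and 239 site bases per 1000000 in ssRNase lists 1, 2 and 3, against 582, 513 and 1029 in dsRNase lists 1, 2 and 3. In site bases the order was the opposite, with 3367, 997 and 1934 nt in the ssRNase lists and 479, 502 and 822 nt in the dsRNase lists. The groups overlap in neither measure. The log2 difference of the share was -1.12 (SE 0.316, limma adjusted p = 0.0407), or -0.43 relative to the median of windows with a site in all 6 lists.

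SRSF2, also known as SC35, stood furthest towards dsRNase. Its share was 148, 159 and 92.8 per 1000000 in the ssRNase lists, against 453, 344 and 647 in the dsRNase lists, each dsRNase list being above every ssRNase one. The log2 difference was -1.69 (SE 0.308, limma adjusted p = 0.0132), and -1.01 relative to the window median. Of the windows with a site in all 6 lists, 12.2% had a lower difference. The site bases themselves overlapped between the nucleases, with 1513, 463 and 752 nt in the ssRNase lists and 373, 337 and 517 nt in the dsRNase lists. SRSF2 was the one gene still called when lists were scaled by their own-strand site bases (log2 difference -1.37, limma adjusted p = 0.0165). Of all windows 6.57% were then called as higher with dsRNase, but 1396 of the 4466 with a site in all 6 lists.

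SRSF3, the SR protein also known as SRp20, and SRSF7, which carries a zinc knuckle beside its RNA recognition motif, both act in mRNA export as well as in splicing. SRSF3 had 105, 48.0 and 73.6 site bases per 1000000 with ssRNase and 76.5, 134 and 494 with dsRNase. The groups overlap, and dsRNase list 3 lies far above the other 5 lists. The log2 difference of -1.09 (SE 0.647) did not pass (limma adjusted p = 0.257), and was -0.40 without dsRNase replicate 3. It was -1.71 with own-strand scaling, where the limma adjusted p was 0.107, and passed at 0.0245 when that fit was limited to features with a site in all 6 lists, an alternative added after the data were seen. In that limited fit 1611 of 4466 windows were called as higher with dsRNase. SRSF7 had 149, 220 and 132 site bases per 1000000 with ssRNase and 274, 356 and 227 with dsRNase, without overlap. Its log2 difference of -0.72 (SE 0.265) did not pass either (limma adjusted p = 0.0866), was -0.03 relative to the window median and 0.10 with median scaling.

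SRSF4 and SRSF6, SR proteins with a pair of RNA recognition motifs, differed in how even they were across lists. SRSF4 had 387, 424 and 428 site bases per 1000000 in the ssRNase lists, the most even ssRNase values of any member, against 771, 843 and 534 in the dsRNase lists. The log2 difference was -0.74 (SE 0.221, limma adjusted p = 0.0479), which is -0.06 relative to the window median, and 0.12 with median scaling. SRSF6 had 247, 228 and 134 site bases per 1000000 with ssRNase, against 36.4, 423 and 188 with dsRNase. Its dsRNase lists thus span both the lowest and the highest of the 6 values. In dsRNase list 1 it held 1 site of 30 nt, against 13 sites in list 2 and 3 in list 3. The log2 difference of SRSF6 was 0.33 (SE 0.761, limma adjusted p = 0.821), -0.21 with own-strand scaling and -0.48 without dsRNase replicate 1.

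TRA2A and TRA2B bind GAA-rich exonic enhancers. TRA2A had 344, 260 and 314 site bases per 1000000 with ssRNase, against 822, 609 and 532 with dsRNase, without overlap. The log2 difference was -1.03 (SE 0.229, limma adjusted p = 0.0203), or -0.35 relative to the window median. TRA2B had 405, 379 and 300 site bases per 1000000 with ssRNase and 477, 556 and 612 with dsRNase, also without overlap. Its log2 difference of -0.58 (SE 0.197) did not pass (limma adjusted p = 0.0703), was 0.11 relative to the window median and 0.28 with median scaling. TRA2B had the largest count of ssRNase sites together with SRSF4, at 79 each in list 1.

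These calls depended on the scaling and the lists. With median scaling, over windows with a site in all 6 lists, limma called 0 of 8 genes, and the genes' median difference was -0.04. An unadjusted limma p under 0.05 was then held by 1 gene, beside 16160 of 31413 windows. Own-strand scaling left SRSF2 alone. Of the 4466 windows with a site in all 6 lists, 665 were called as higher with dsRNase under median scaling. Limma also called 0 genes without any one of the ssRNase lists (1 with an unadjusted p under 0.05 in each case), and 2 without dsRNase replicate 1. Calls were then rare over all windows too: 147 of 16283, 51 of 19674 and 45 of 16464 without ssRNase list 1, 2 or 3. An unadjusted limma p under 0.05 was held by 2215, 2003 and 2002 of these windows. Without dsRNase replicate 1 the calls numbered 8354 of 29981 windows. Of the 5694 windows with a site in every remaining list, 1496 were then called as higher with dsRNase. With the replicate number in the limma fit 0 genes and 0 windows were called. An unadjusted limma p under 0.05 was held by 5 genes in that fit, beside 11360 of 31413 windows. The limma adjusted p was then 0.114 for SRSF1, 0.0638 for SRSF2, 0.138 for SRSF4 and 0.0729 for TRA2A.

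Per 1000 nt of gene the shares ordered the members differently from the totals. With ssRNase the mean was 47.2 ± 8.80 site bases per 1000000 per 1000 nt in SRSF1, 40.4 ± 10.8 in SRSF2, 35.4 ± 10.5 in SRSF6, 21.1 ± 5.94 in SRSF7 and 16.3 ± 2.45 in TRA2B. Then came SRSF4 with 12.1 ± 0.650, TRA2A with 11.2 ± 1.57 and SRSF3 with 7.42 ± 2.79 (SD, n = 3 lists each). Only TRA2B and SRSF4 were neighbours whose lists did not overlap. With dsRNase SRSF2 stood first, at 146 ± 46.5, before SRSF1 at 110 ± 43.6, and these 2 overlapped. A step without overlap separated SRSF1 from SRSF6 (37.6 ± 33.9). Another separated SRSF7 (36.2 ± 8.32) from its neighbour TRA2B (24.7 ± 3.05). TRA2B, TRA2A (24.0 ± 5.52), SRSF3 (23.1 ± 22.3) and SRSF4 (20.9 ± 4.71) overlapped from neighbour to neighbour, and TRA2A and SRSF3 also overlapped SRSF7, with 30.2 in dsRNase list 1 for TRA2A and 48.7 in dsRNase list 3 for SRSF3 above the lowest SRSF7 value of 28.7. The spans include introns, and the genes of 22231 to 34245 nt stand low in both orders beside SRSF3.

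Regions were made by joining sites of any lists that share 1 nt or more of a strand, which gave 447 regions in the 8 genes and the same number in the authors' merged list. With both nucleases 142 of them were found (31.8%, exact binomial 95% interval 27.5% to 36.3%, counting error only). A further 282 (63.1%) were found with ssRNase only and 23 (5.15%) with dsRNase only. Both nucleases revealed 12.0% of the 293016 regions of the series and 24.5% of those in the windows with a site in all 6 lists. Regions found in all 6 lists numbered 18 (4.03%), against 0.696% over the series and 2.90% in those windows. When every list was thinned to 21561 sites, the share of the genes' regions found with both nucleases was 18.7%. No thinned share was computed for the series or for those windows, so this value has no matched background.

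**Figure D2:**
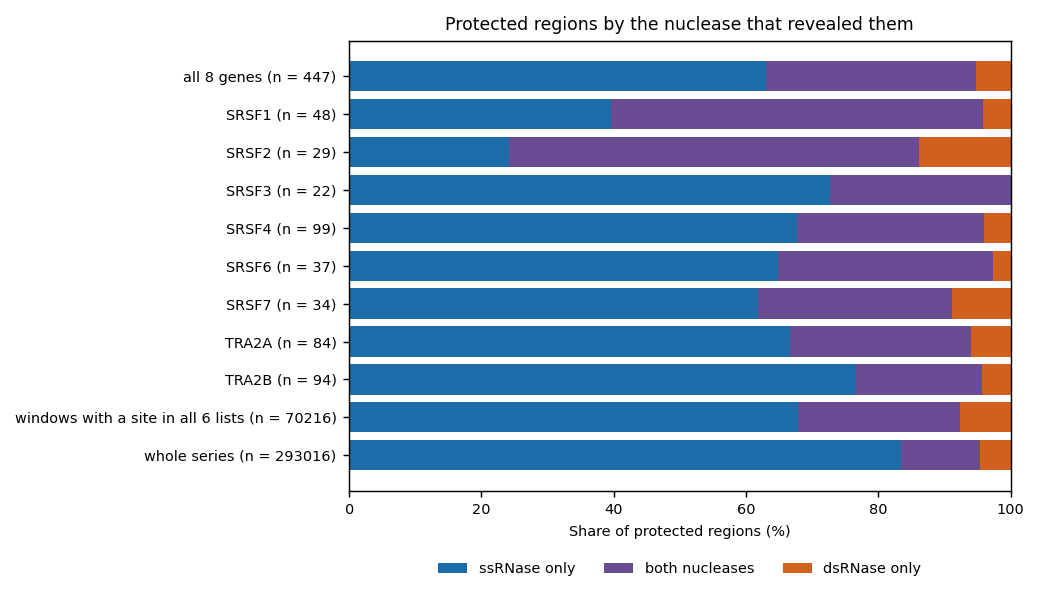
Share of protected regions (percent, x axis) found with ssRNase only, with both nucleases and with dsRNase only, for the 8 genes together, each gene, the windows with a site in all 6 lists and the whole series. The numbers of regions stand beside the names; SRSF1 and SRSF2 have the widest middle segments, 56.2% and 62.1%.

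SRSF1 and SRSF2 stood out in this count. In SRSF2 18 of 29 regions (62.1%) and in SRSF1 27 of 48 (56.2%) were found with both nucleases. The other members ranged from 19.1% in TRA2B (18 of 94) to 32.4% in SRSF6 (12 of 37). SRSF1 and SRSF2 also had the densest cover: sites of any list covered 62.2% of the SRSF1 span and 61.9% of SRSF2, against 49.2% of SRSF6, 28.3% of SRSF7, 24.5% of TRA2B, 17.8% of TRA2A, 16.9% of SRSF4 and 13.6% of SRSF3. The part that cover plays in the overlap between lists was not tested, nor was the difference between genes. Most dsRNase-protected bases were also protected with ssRNase: 77.2% over the 8 genes, and from 68.7% in SRSF2 to 83.0% in SRSF1. In the other direction 21.1% of ssRNase-protected bases were protected with dsRNase. Sites of the ssRNase lists together covered 26905 nt in these genes and those of the dsRNase lists 7340 nt. This inequality bears on both percentages, and neither was computed for the rest of the genome.

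**Figure D3:**
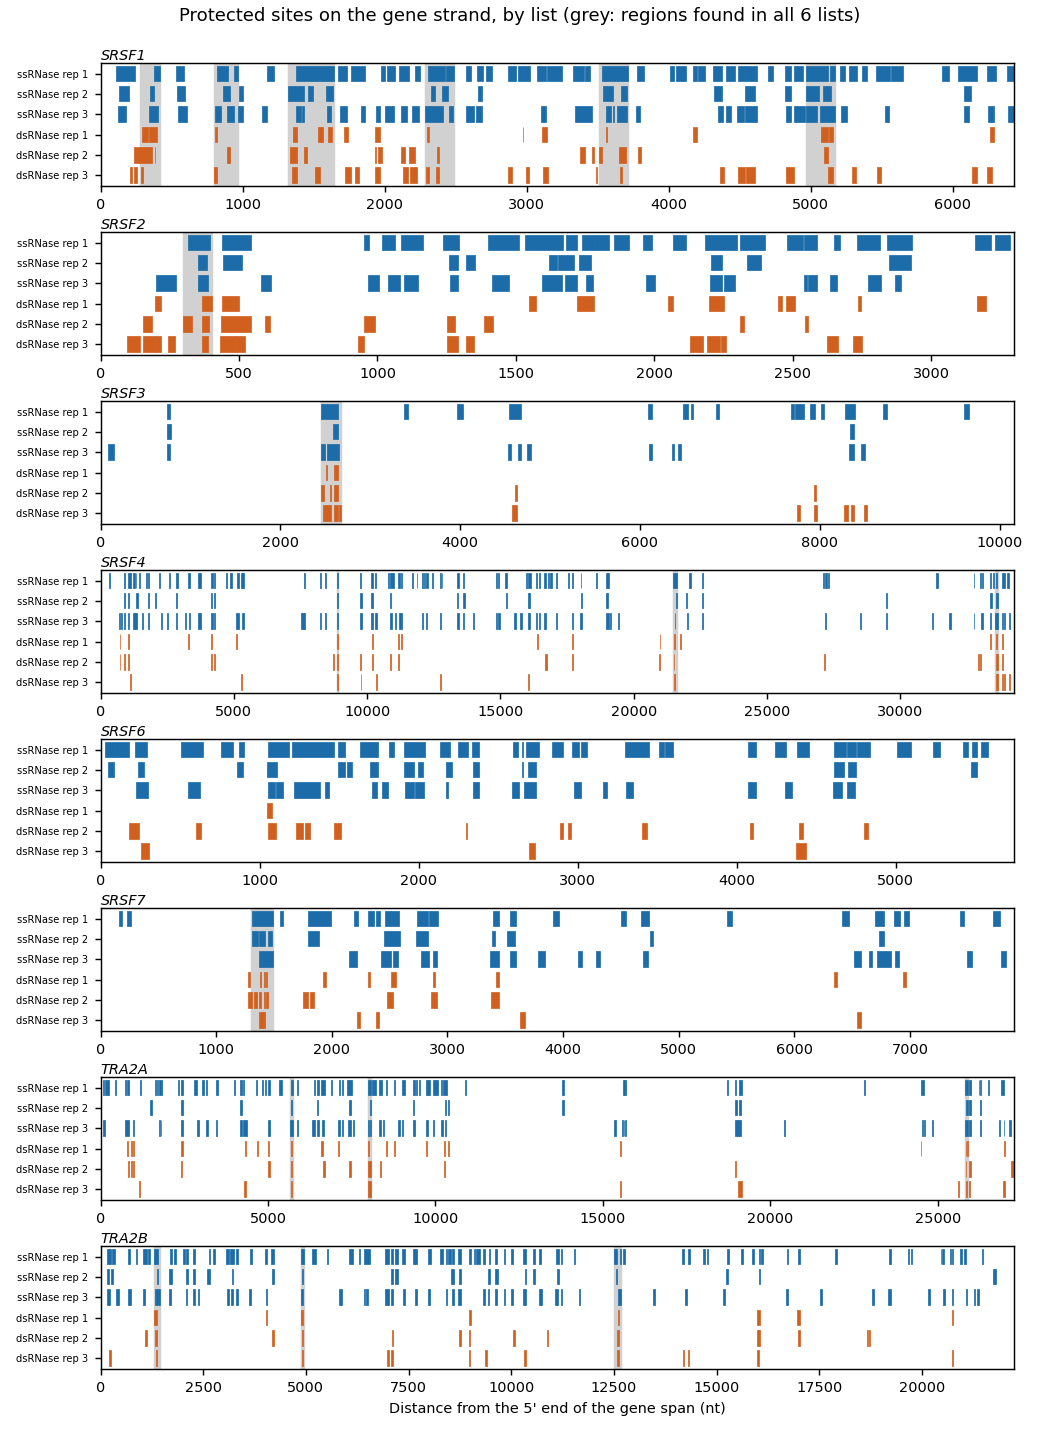
Sites on the gene's strand in each of the 6 lists (rows, ssRNase above dsRNase) by distance from the 5′ end of each gene span (x axis, nt). Grey bands are the 18 regions found in all 6 lists, 6 of them in SRSF1; the longest gap without a site in any list, 4480 nt, lies in SRSF4.

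The regions that recurred were spread over 7 of the 8 genes: 6 in SRSF1, 3 each in SRSF4, TRA2A and TRA2B and 1 each in SRSF2, SRSF3 and SRSF7. In SRSF1 the one with the most site bases was 325 nt long, the longest of all 447, at chr17:56083064-56083388 in hg19, on the minus strand and 1320 nt from the 5′ end. Its site bases numbered 271, 206 and 83 with ssRNase and 96, 74 and 75 with dsRNase. The other SRSF1 regions began 277, 800, 2281, 3507 and 4969 nt from the 5′ end, along a span of 6428 nt. The 2 nearest the 3′ end were chr17:56079538-56079739, with 190, 143 and 179 site bases under ssRNase and 85, 29 and 32 under dsRNase, and chr17:56080995-56081201, with 184, 108 and 115 under ssRNase and 8, 76 and 12 under dsRNase. At chr17:56082221-56082427 the counts were 176, 72 and 155 nt under ssRNase and 17, 16 and 38 nt under dsRNase, and at chr17:56083738-56083908 they were 112, 49 and 91 nt under ssRNase and 16, 22 and 18 nt under dsRNase. In these 4 regions every ssRNase list covered more than every dsRNase list. The ssRNase lists hold more site bases in all, 2915002 to 10193603 against 798935 to 979087. How often regions elsewhere show this order was not counted, so it is not read as a trait of these regions. The one at 277 nt (chr17:56084287-56084431) differed from the rest in that dsRNase lists 1 and 2 held more of it, at 48, 25 and 60 nt with ssRNase and 103, 85 and 14 nt with dsRNase.

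In SRSF3 one region was in all 6 lists, and none of its others was in more than 4. The region at chr6:36564540-36564762 on the plus strand, 223 nt long and 2451 nt from the 5′ end, held 185, 53 and 184 site bases with ssRNase and 63, 84 and 161 with dsRNase. In dsRNase list 1 these 63 nt were all the protected bases the gene had. The preceding 1672 nt of the gene, from 779 to 2450 nt, held no site in any list.

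SRSF7 had its recurrent region at chr2:38977143-38977335 (193 nt, minus strand, 1302 nt from the 5′ end), with 185, 136 and 124 site bases under ssRNase and 33, 84 and 55 under dsRNase. Apart from a short region of 2 dsRNase lists beside it, it too followed a gap without a site in any list, of 1008 nt. In SRSF2 the recurrent region lay at chr17:74733091-74733197 (107 nt, minus strand, 297 nt from the 5′ end), with 81, 34 and 34 site bases with ssRNase and 36, 58 and 22 with dsRNase.

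The recurrent regions of SRSF4 were far apart. Measured from the 5′ end they began 8864, 21471 and 33568 nt along a gene of 34245 nt. The most covered, chr1:29474824-29474932 on the minus strand, lay near the 3′ end and held 39, 53 and 105 site bases with ssRNase and 33, 78 and 67 with dsRNase. The shortest, chr1:29499584-29499636, was the most even across lists, with 48, 50 and 49 site bases with ssRNase and 33, 36 and 32 with dsRNase. At chr1:29486876-29487029 the ssRNase lists differed among themselves, with 154, 28 and 18 site bases, against 30, 18 and 24 with dsRNase.

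SRSF6 had no region in all 6 lists. Of its 2 regions in 5 lists, the one with more site bases was chr20:42086589-42086809 on the plus strand. It began 86 nt from the 5′ end and held 167, 35 and 71 site bases with ssRNase and 0, 64 and 50 with dsRNase. The other, chr20:42087550-42087690, began 1047 nt from the 5′ end. There the counts were 135, 59 and 86 nt with ssRNase and 30, 51 and 0 nt with dsRNase.

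In TRA2A the regions began 5668, 7986 and 25813 nt from the 5′ end. The one with the most site bases, chr7:23563572-23563671 on the minus strand, held 96, 47 and 94 site bases with ssRNase and 33, 85 and 63 with dsRNase. At chr7:23565913-23565989 the counts were 68, 53 and 75 nt with ssRNase and 39, 44 and 28 nt with dsRNase, and at chr7:23545757-23545844 they were 80, 47 and 73 nt with ssRNase and 26, 17 and 23 nt with dsRNase. In both of these every ssRNase list covered more than every dsRNase list, while at the first the groups overlap. As in SRSF1, the ssRNase lists hold more site bases in all, and this order was not counted in regions elsewhere. In TRA2B the recurrent regions began 1293, 4892 and 12505 nt from the 5′ end. The first, chr3:185654482-185654632 on the minus strand, held 118, 29 and 130 site bases with ssRNase and 68, 45 and 35 with dsRNase. At chr3:185643252-185643420 TRA2B had 111, 44 and 65 site bases with ssRNase and 39, 53 and 44 with dsRNase. The last recurrent region of TRA2A thus lay near the 3′ end of its 27258 nt, and that of TRA2B near the middle of its 22231 nt.

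A region joins sites that may only chain together, so the bases covered in every list were also counted. They came to 220 nt, in 9 of the 18 regions. The longest stretch was 41 nt in SRSF3, chr6:36564687-36564727. TRA2B followed with 36 nt at chr3:185650995-185651030, SRSF4 with 32 nt at chr1:29474878-29474909 and 29 nt at chr1:29499598-29499626, TRA2A with 28 nt at chr7:23565949-23565976 and SRSF2 with 18 nt at chr17:74733109-74733126. The remaining stretches, in SRSF1, SRSF7 and TRA2B, measured 6 to 11 nt. SRSF1, with the most regions in all 6 lists, had 9 such bases. In TRA2B at 4892 nt (chr3:185650981-185651033) the site was 52, 37 and 39 nt long with ssRNase and 39, 37 and 36 nt with dsRNase, so that ssRNase list 1 alone reached further.

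**Figure D4:**
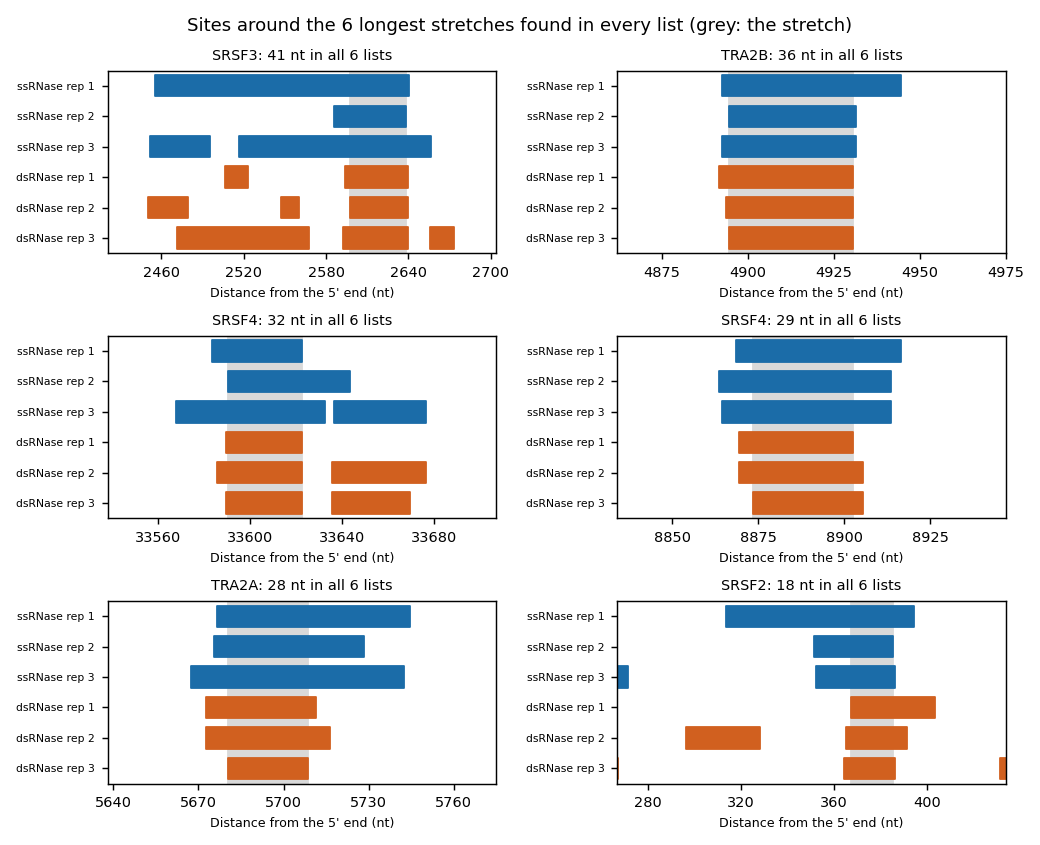
Sites in the 6 lists (rows, ssRNase above dsRNase) around the 6 longest stretches covered in every list, by distance from the 5′ end of the gene (x axis, nt). The grey band is the stretch itself, 41 nt in SRSF3 and 18 nt in SRSF2; in TRA2B all sites but that of ssRNase list 1 nearly coincide with it, while in SRSF3 the ssRNase sites of lists 1 and 3 reach beyond it.

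Ranked by the authors' score within each list, which is all that score was used for, several lists placed the best site of a gene in the same region. In SRSF3 the region at 2451 nt held it in 4 lists, ssRNase list 3 and all 3 dsRNase lists. In SRSF4 a region 1026 nt from the 5′ end held the best site of all 3 ssRNase lists. In list 1 this site was chr1:29507404-29507474, at score percentile 99.8 of the whole list. Sites with tied scores share their average rank. In SRSF2 the best site of all 3 dsRNase lists lay in one region 432 nt from the 5′ end, of 62, 108 and 53 nt, while the best ssRNase sites lay 1676 nt or more from the 5′ end. The TRA2B region at 4892 nt held the best site of ssRNase lists 1 and 3 and dsRNase list 2. The best SRSF6 site in dsRNase list 1 ranked low, at score percentile 34.4 of that list.

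Some protection appeared with one nuclease only. In 34 regions all 3 ssRNase lists and no dsRNase list held a site, which is 7.61% of the 447 regions, beside 9.05% of regions in the whole series and 8.33% in windows with a site in all 6 lists. All 3 dsRNase lists without any ssRNase list held a site in none of the 447, against 0.305% of regions in the whole series and 0.916% in those windows. The ssRNase-only region with the most site bases was in SRSF6, at chr20:42088408-42088543 (136 nt, 1905 nt from the 5′ end), with 136, 96 and 117 site bases with ssRNase. It held the best-scoring SRSF6 site of ssRNase lists 2 and 3. SRSF7 had 92, 103 and 70 ssRNase-protected bases at chr2:38975796-38975908, and SRSF4 had 102, 48 and 110 at chr1:29489436-29489546, in both cases with none in the dsRNase lists. In SRSF3 the ssRNase-only region in all 3 lists with the most site bases was small, at chr6:36562827-36562867, with 38, 40 and 34 nt under ssRNase; it is the last one before the gap that precedes the recurrent region. Of the 23 regions found with dsRNase only, 5 had sites in more than 1 list, and each of these was in 2 lists: 2 regions in TRA2A and 1 each in SRSF2, SRSF4 and SRSF7. The SRSF2 one, chr17:74733300-74733341, was 153 nt from the 5′ end and had 31 and 40 site bases in dsRNase lists 2 and 3. dsRNase lists hold fewer sites, so absence from them was in part not detectable at their length.

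Protected bases lay in other parts of some genes with ssRNase than with dsRNase. The span was divided into 5 parts of 20%, from 5′ to 3′. Of the 40 parts of the 8 genes, the lists of the nucleases did not overlap in 14, 7 with the ssRNase and 7 with the dsRNase percentage higher. This is 35.0% of the parts, beside 16.8% of the 20% parts of windows with a site in all 6 lists. Parts of 1 gene depend on one another, and a gene and a 10000 bp window differ in length and in what they hold. In SRSF2 the first 20% held 17.7% ± 5.07 of the ssRNase-protected bases and 47.9% ± 15.4 of the dsRNase-protected ones. In SRSF3 the second 20%, where the recurrent region lies, held 31.9% ± 5.49 with ssRNase and 68.3% ± 29.8 with dsRNase. Its first 20% held 16.2% ± 12.5 of the ssRNase-protected bases and no dsRNase-protected base in any list. For TRA2B the fourth 20% showed 9.72% ± 2.58 under ssRNase and 27.3% ± 9.02 under dsRNase (SD, n = 3 lists each). The first 20% of SRSF6 held 23.7% ± 1.95 with ssRNase and 56.0% ± 38.1 with dsRNase, where the single site of dsRNase list 1 makes up all of that list's protected bases. Among the parts with the ssRNase percentage higher, the third 20% of SRSF2 held 30.8% ± 3.96 with ssRNase and 12.8% ± 9.19 with dsRNase, and the second 20% of SRSF6 held 34.8% ± 5.64 with ssRNase and 9.34% ± 16.2 with dsRNase. In none of these parts did the lists of the nucleases overlap, and the parts were chosen after their values were seen.

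For the 3′-terminal 50% of the span, the groups did not overlap in 3 of 8 genes, beside 21.2% of the windows with a site in all 6 lists, for the 3′-terminal 50% of the window. With ssRNase it held 49.2% ± 2.35 of the protected bases of SRSF1, against 35.9% ± 7.41 with dsRNase. The order was the opposite in SRSF4, with 27.2% ± 0.931 with ssRNase and 41.9% ± 5.95 with dsRNase, and in TRA2B, with 25.9% ± 4.80 with ssRNase and 44.2% ± 8.50 with dsRNase. The two-sided exact permutation test gave p = 0.1 for each, the smallest p that 3 against 3 lists can give. Averaged over the 8 genes, the 3′-terminal 50% held 35.6% of protected bases with ssRNase and 31.5% with dsRNase, a difference within the spread of the lists. Without exon positions it was not tested how much of this follows the exons.

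**Figure D5:**
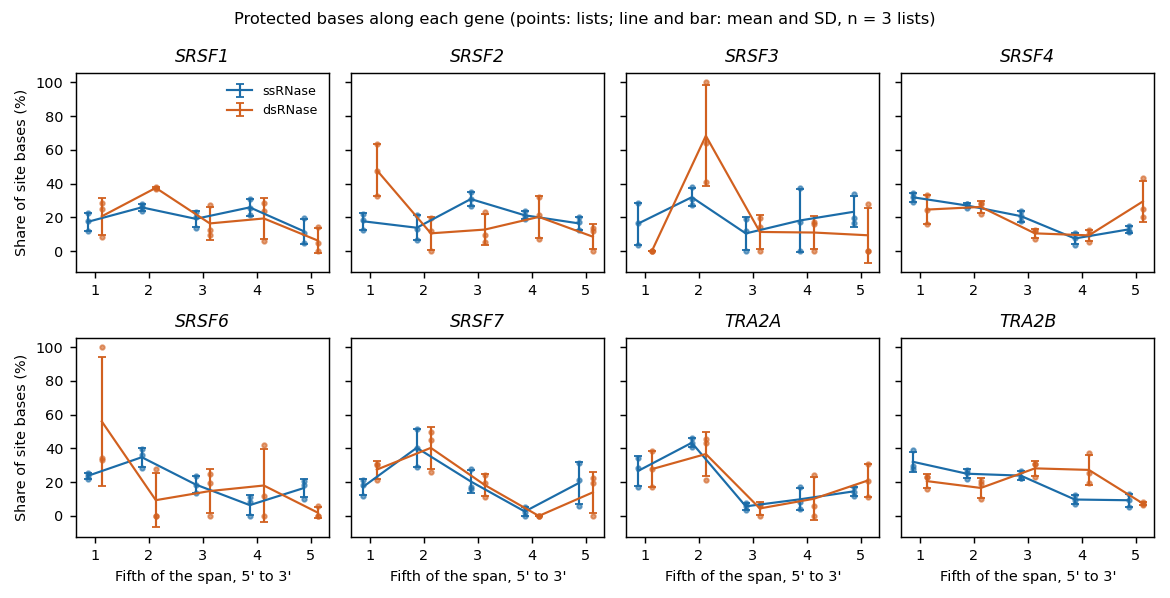
Share of each gene's protected bases (percent, y axis) in each 20% of the span from 5′ to 3′ (x axis). Points are lists, lines join the means of 3 ssRNase and 3 dsRNase lists, and bars are the SD; the dsRNase line peaks at 68.3% in the second 20% of SRSF3 and at 47.9% in the first 20% of SRSF2.

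Sites in the 8 genes were longer with ssRNase. Their median length was 48, 45.5 and 44 nt in ssRNase lists 1, 2 and 3, against 31, 32 and 34 nt in dsRNase lists 1, 2 and 3, and the groups did not overlap. The whole lists showed the same step, with a mean of the medians of 43.0 ± 1.00 nt with ssRNase and 33.3 ± 0.577 nt with dsRNase, beside 45.8 ± 2.02 nt with ssRNase and 32.3 ± 1.53 nt with dsRNase for the 8 genes (SD, n = 3 lists each). Sites over 100 nt numbered 32, 2 and 12 in the ssRNase lists and 0, 1 and 1 in the dsRNase lists. The longest were in ssRNase list 1, of 271 nt in SRSF1, 260 nt in SRSF6 and 206 nt in SRSF7. In list 1 sites over 100 nt were 8.56% of those in the 8 genes and 3.39% of the whole list, while in ssRNase list 2 they were 1.61% and 4.08%, so the replicates differ in which is higher.

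Within the spans nearly all protection was on the strand of the gene. Of the site bases, 99.3%, 99.5% and 99.1% lay on the gene's own strand with ssRNase, against 100% in each dsRNase list. The sites on the other strand all lay in SRSF1.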

How the data were processed

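HEK293T footprint and digestion-control libraries were compared by the authors, who deposited 1 list of protected sites per nuclease and replicate. The submitters' processing notes name cutadapt 0.9.5, TopHat2 2.0.9 and the build hg19. The names of the deposited lists give the caller as CSAR and the false discovery rate as 5%. Read filters, the handling of multiply mapped reads and any scaling before site calling are not given here by any source. Per the labels' protocols, library preparation included DSN normalisation, which lowers abundant sequences. The deposited score per site, made by the authors on a scale that is not given, served to rank sites within their own list, higher being taken as better. Positions were read as 1-based and inclusive.

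From the lists, site bases were summed per gene and per stranded window of 10000 bp, a site belonging where its midpoint lay, and windows touching the genes were left out. limma 3.58.1 in R 4.3.3 (lmFit, eBayes) compared the 3 ssRNase with the 3 dsRNase lists on log2(site bases per 1000000 + 20), for features with a site in at least 3 of 6 lists, with Benjamini-Hochberg adjustment over all features and a threshold of 0.05. Sums and figures were made in Python 3.11.15 (pandas 2.3.3, numpy 2.4.6, matplotlib 3.10.9). The gene names and gene starts and ends came with the choice of genes, and the members, lists of regions and tests were chosen with earlier results of these data known. All 8 genes were named, with the region or tied regions found in the most lists in each and the regions found in all 6. The other regions named, those of the best-scoring sites and those of one nuclease, were chosen after their values were seen. Tested on simulated lists at the real list lengths, with 4466 windows, the ssRNase against dsRNase test recovered 33 of 50 windows changed 16-fold and 5 of 50 changed 4-fold, and in the other direction 6 of 42 changed 0.0625-fold and 0 of 47 changed 0.25-fold; 1 of 4233 unchanged windows was called. The simulation held only windows with a site in all 6 lists, with an assumed spread between lists. The reported fit covers 31413 windows, so these rates need not hold for it. No call is not read as no difference. Alternatives covered the pseudocount, filter, scaling, window size, score threshold, number of sites, overlap rule, replicate block and leaving out each list.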

Additional observations from a re-analysis of the deposited data

Results flagged for a closer look

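Opposite-strand sites do not enter the comparisons above. Within the 8 spans there were 7, all in SRSF1 and all with ssRNase, 3, 1 and 3 in ssRNase lists 1, 2 and 3, and 0 in each dsRNase list. Each list holds sites called over the digestion control, so these 7 are above it. They lay in 3 places, 161 to 214, 4417 to 4450 and 4542 to 4600 nt from the 5′ end of SRSF1, and the middle place was in all 3 ssRNase lists. Each faced a site on the SRSF1 strand found in 2 or 4 lists, and 6 of the 7 faced one in the same list. Their origin was not tested.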

How the results depend on the processing

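The 4 limma calls of the share became 2 with a pseudocount of 5, 2 with no filter, 0 for features with a site with both nucleases, 0 with median scaling, 1 with own-strand scaling, 2 with own-strand scaling and a site in all 6 lists (added after the data were seen; SRSF2 and SRSF3), 0 with equal numbers of sites, and 0 to 3 without 1 list: 0 without any one of the ssRNase lists, 2 without dsRNase replicate 1. They were 5 with a pseudocount of 100 (TRA2B at a limma adjusted p of 0.0423) and 5 by number of sites (SRSF7 at 0.0181). Windows called as higher with dsRNase were 2106 of 31413 with a pseudocount of 5, 1952 with 100 and 1982 of 62778 with no filter. They were 631 of 20978 with both nucleases, 1126 of 31413 with median scaling and 970 of 11877 with equal numbers of sites. By number of sites they were 2195 of 31413, and with own-strand scaling 2065 of 31413. The genes are read against the windows with a site in all 6 lists. Of those 4466 windows, 1469 were called as higher with dsRNase with a pseudocount of 5, 1335 with 100 and 1361 with no filter. The count was 421 with both nucleases, 665 with median scaling, 1476 by number of sites and 1396 with own-strand scaling. With equal numbers of sites it was 99 of 1440. The same replicate number marks no stated batch, and same-numbered lists correlated at -0.05, -0.07 and -0.04 over 4474 windows. Different-numbered lists correlated at -0.03 to 0.08. Values this small cannot show whether the numbers pair the lists, so the fits with and without the replicate block both stand. With the block 0 genes and 0 windows were called. An unadjusted limma p under 0.05 was held by 5 genes, beside 11360 of 31413 windows. Adjusted p ranged over the alternatives from 0.0174 to 0.610 for SRSF1 and from 0.00153 to 0.348 for SRSF2. Direction reversed under median scaling for SRSF4 (0.12), SRSF7 (0.0969) and TRA2B (0.28), and for SRSF6 under own-strand scaling (-0.21 with either filter), without dsRNase replicate 1 (-0.48; up to 1.00 without another list) and with equal numbers of sites (-0.00207). SRSF1, SRSF2, SRSF3 and TRA2A kept a negative difference in every alternative run, but in some it was small. The smallest was -0.0566 for SRSF3, with equal numbers of sites. With median scaling it was -0.266 for SRSF1, -0.182 for TRA2A and -0.875 for SRSF2, the smallest of each. The share held by the 8 genes differed by -0.137 percentage points with own-strand scaling and by -0.206 to -0.167 without 1 list. The ssRNase minus dsRNase difference in median site length, 13.5 nt, was 16.7 nt for the better-scoring 50%, 17.7 nt as a mean length and 12.4 to 14.4 nt without 1 list. The own-strand share differed by -0.691 points, by -0.884 as number of sites, by -0.259 for the better-scoring 50% and by -0.764 to -0.605 without 1 list. Regions found with both nucleases were 27.2% for the better-scoring 50%, 18.7% with equal numbers of sites (added after the data were seen) and 24.7% to 32.5% without 1 list. The difference in the 3′-terminal 50%, 4.15 points, ranged from 0.550 to 9.50 without 1 list. The causes were not tested. Depth is unknown, and the shorter dsRNase lists limit what can be found in them.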
